A study of Arabidopsis thaliana with 10 samples.

Results

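The aquaporins of Arabidopsis thaliana were followed through RNA sequencing of whole seedlings that differ in IBH1 or IBL1, a pair of helix-loop-helix proteins that restrain cell elongation. The family was taken as a list of 35 gene IDs, found in the tables by ID, out of 34047 genes in all. It holds 13 plasma membrane intrinsic proteins (PIP), 10 tonoplast intrinsic proteins (TIP), 9 nodulin 26-like intrinsic proteins (NIP) and 3 small basic intrinsic proteins (SIP). Members usually written with a semicolon, such as PIP1;1, are written here with a hyphen, as PIP1-1.

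The seedlings were 10 days old, untreated and of the Col-0 ecotype, in 5 genotypes with 2 libraries each. The wild type (Col) was compared with 4 homozygous lines. The IBH1 overexpressor carries 35Spro:IBH1-GFP and the IBL1 overexpressor 35Spro:IBL1-GFP, in which the strong viral 35S promoter drives a fusion to green fluorescent protein in most tissues. The ibh1 mutant carries the insertion SALK 049177 and the ibl1 mutant SALK 119457. The mutants are called ibh1 and ibl1 below. The sources used here do not say how many independent transgenic lines were sampled.

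The values are FPKM (fragments scaled for transcript length and for library size), so levels can be compared between genes, with 1 value per genotype over its 2 libraries. The depth per library is unknown and no spread between replicates can be seen. A gene is called here where the authors' q-value is below 0.05, and ± gives the standard error of a log2 ratio implied by the authors' test statistic. The labels call the libraries biological replicates without saying what was grown apart, so these tests may measure technical spread. IBH1 was at 22.2 FPKM in Col, 5148 in its overexpressor and 6.91 in its mutant. IBL1 was at 7.70 FPKM in Col, 201 in its overexpressor and 1.87 in its mutant, so both mutants kept part of the transcript. In the authors' deposited table IBL1 was also lower in the IBH1 overexpressor, at 1.84 FPKM (q = 0.0363). Coordinates are the loci given in the files (TAIR10).

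Aquaporins are channel proteins that let water, and in some members small neutral solutes, cross a membrane down its gradient. PIPs sit in the plasma membrane and TIPs in the membrane of the vacuole, the compartment whose filling drives plant cell expansion. NIPs carry solutes such as boric acid and other metalloids, and SIPs are found in the endoplasmic reticulum. Brassinosteroids, the growth hormones upstream of IBH1, promote the same cell expansion.

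Transcript levels were far from equal across the family. Of the 35 members, 13 had a mean over the 5 genotypes of at least 100 FPKM, 11 lay between 10 and 100, 4 between 1 and 10, and 7 below 1 FPKM. The 35 members summed to 6988 FPKM in Col, of which the PIPs made up 53.3%, the TIPs 44.1%, the NIPs 1.12% and the SIPs 1.51%. TIP1-2 was the most abundant member in each of the 5 genotypes, at 1446 FPKM in Col. Every PIP was detected, whereas 2 members, TIP5-1 and NIP4-1, were listed at 0 in all genotypes.

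**Figure D1:**
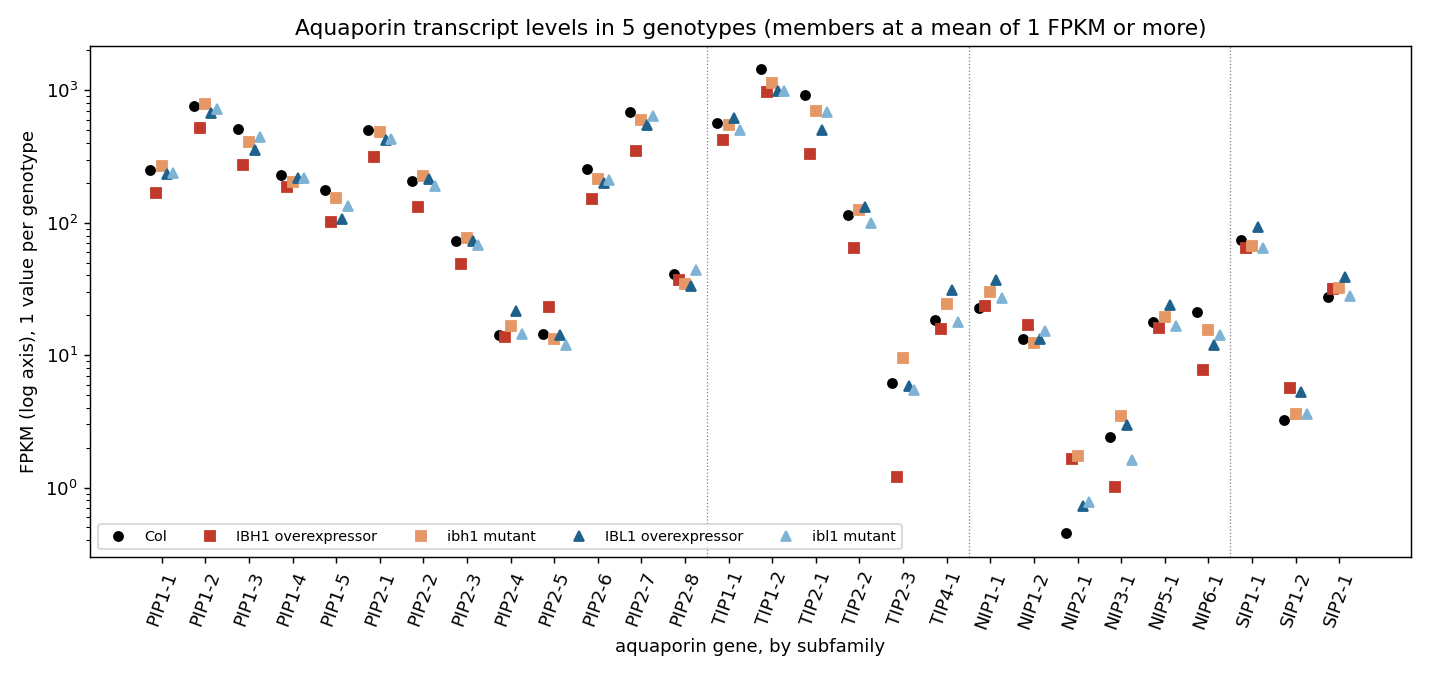
FPKM of the 28 aquaporins at a mean of 1 FPKM or more, on a log axis, with 1 point per genotype and members ordered by subfamily. The IBH1 overexpressor (red squares) is the lowest point for most PIPs and for every TIP drawn, while the NIPs and SIPs lie well below the abundant PIPs and TIPs with their points in mixed order.

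In the IBH1 overexpressor, 16 of the 29 members tested fell and 1 rose, against 4.19% of all tested genes lower and 3.82% higher. The fall took in 10 of 13 PIPs, 5 of the 6 TIPs tested, 1 of the 7 NIPs tested and 0 of 3 SIPs. In the ibh1 mutant 3 of 29 members fell and 0 rose (all genes 2.04% lower and 1.34% higher). The IBL1 overexpressor had 9 of 29 lower and 4 higher (all genes 3.58% lower and 10.3% higher), and the ibl1 mutant 5 of 28 lower and 0 higher (all genes 4.40% lower and 1.05% higher). These shares cover genes of every level and are not matched to the members. All members called in the mutants had a mean of 100 FPKM or more. Of all genes at that level, 13.7% were lower in ibh1 and 27.4% in ibl1. In RNA of whole seedlings, fewer cells of a type and less RNA per cell cannot be told apart.

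The median log2 ratio to Col of the 28 members at 1 FPKM or more was -0.56 in the IBH1 overexpressor, where that of all genes with the same filter was 0.00. It was -0.01 in ibh1 (all genes 0.02), -0.01 in the IBL1 overexpressor (all genes 0.12) and -0.12 in ibl1 (all genes -0.07). The median gene of the IBL1 overexpressor thus lay above Col, but not evenly across levels. For all genes at a mean of 100 FPKM or more the median there was 0.02. In ibh1 it was -0.11 at that level. Centring takes the same value off every gene of a table, so it may make abundant members look lower than genes of their level would. With each table centred on its median, the members called in the IBL1 overexpressor became 11 lower and 2 higher, and the share of higher genes among all calls went from 74.3% to 48.6%. In the ibl1 mutant, centring left 3 members lower and 0 higher, and moved that share from 19.2% to 38.4%.

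**Figure D2:**
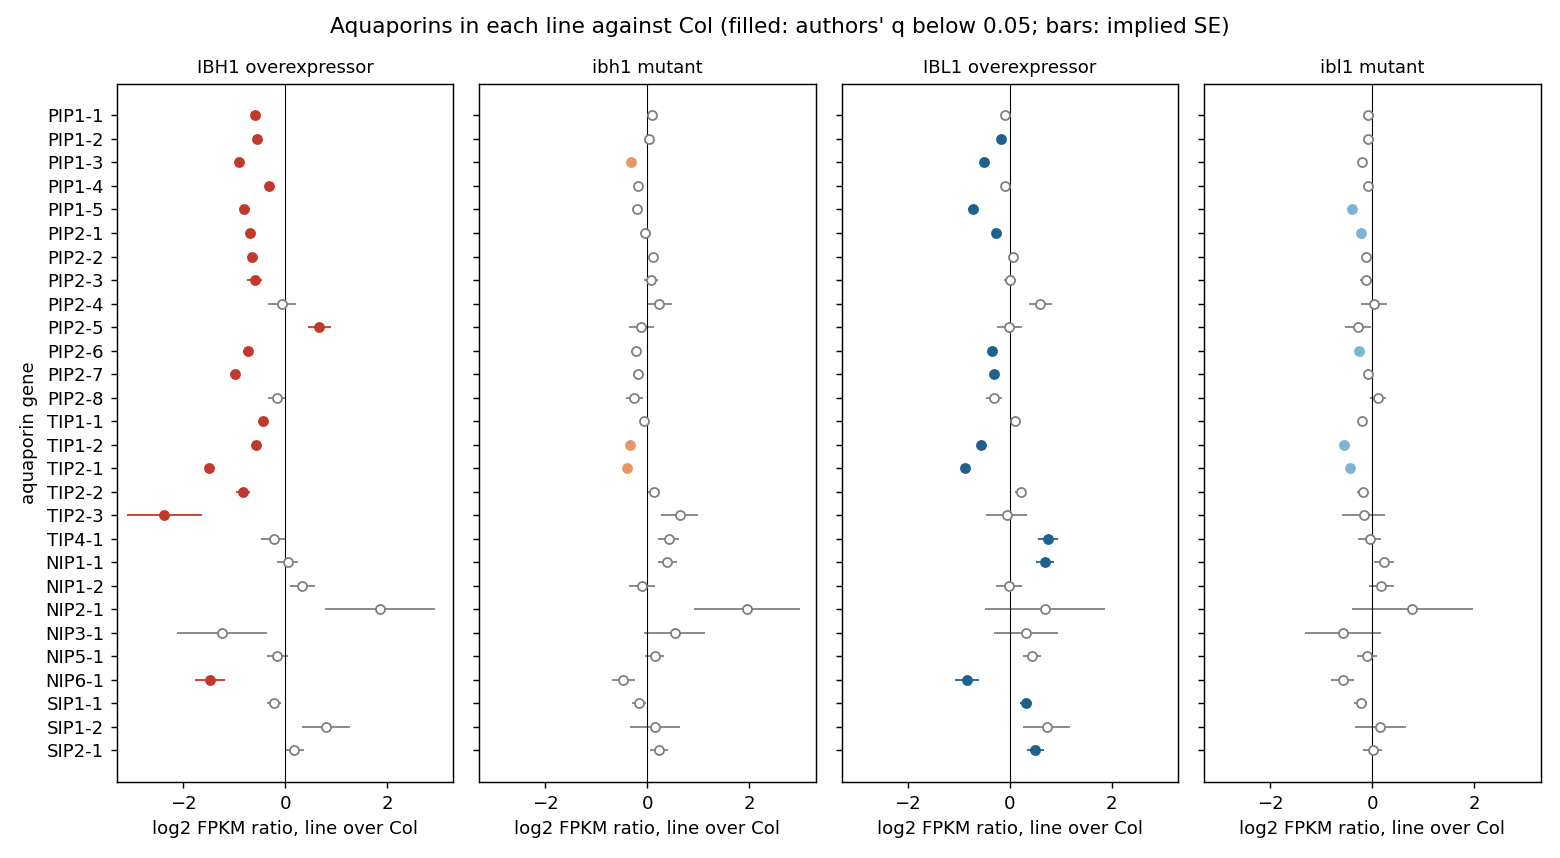
log2 FPKM ratio of each line over Col for the 28 aquaporins at a mean of 1 FPKM or more, with bars of 1 implied standard error and filled points where the authors' q is below 0.05. Filled points to the left of 0 run through the PIPs and the abundant TIPs in the IBH1 overexpressor, and TIP1-2 and TIP2-1 are filled to the left of 0 in all 4 panels.

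The comparisons share the Col libraries, so they are set side by side here and their resemblance is not taken as support. Over the 4 tables, 21 members were called at least once and 14 never. TIP1-2 and TIP2-1, both of the vacuolar membrane, were lower in all 4 lines. Lower in 3 lines were PIP1-3, PIP1-5, PIP2-1 and PIP2-6, and in 2 lines PIP1-2, PIP2-7 and NIP6-1. Another 7 members were lower in 1 line, always the IBH1 overexpressor, and 5 were higher in 1 line. No member was called in opposite directions. How many of all genes were called in as many lines was not counted, so these counts have no share beside them. Lower calls were common among all genes at a mean of 100 FPKM or more. Their shares were 17.2% in the IBH1 overexpressor, 13.7% in ibh1, 19.4% in the IBL1 overexpressor and 27.4% in ibl1.

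All 5 PIP1 genes fell in the IBH1 overexpressor. PIP1 proteins generally reach the plasma membrane as partners of PIP2 proteins. PIP1-3 (AT1G01620, chr1:225665-227302) was at 509.5 FPKM in Col, 272 in the IBH1 overexpressor, 408 in ibh1, 357 in the IBL1 overexpressor and 443 in ibl1. Col is thus the highest of the 5 and the IBH1 overexpressor the lowest. In the authors' deposited tables PIP1-3 fell by 0.91 ± 0.08 on the log2 scale in the IBH1 overexpressor (q listed as 0), by 0.32 ± 0.09 in ibh1 (q = 0.0111) and by 0.51 ± 0.07 in the IBL1 overexpressor (q = 2.36e-12). Its ratio in ibl1, -0.20 ± 0.07, was not called (q = 0.0655).

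PIP1-5 (AT4G23400, chr4:12220743-12222371) had 177 FPKM in Col, 102 in the IBH1 overexpressor, 154 in ibh1, 107 in the IBL1 overexpressor and 134 in ibl1. Both overexpressors lie together at the low end. The authors' deposited tables give falls of 0.80 ± 0.10 in the IBH1 overexpressor (q = 1.72e-12), 0.72 ± 0.09 in the IBL1 overexpressor (q = 1.18e-12) and 0.40 ± 0.09 in ibl1 (q = 0.00109). The ibh1 mutant, at -0.20 ± 0.10, was not called (q = 0.314).

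The other 3 PIP1 genes were lower chiefly in the IBH1 overexpressor. PIP1-2 (AT2G45960, chr2:18910295-18911982), a contributor to water uptake by roots, was the most abundant PIP, at 768 FPKM in Col, 523 in the IBH1 overexpressor, 784 in ibh1, 679.7 in the IBL1 overexpressor and 724 in ibl1. By the authors' deposited tables it fell by 0.55 ± 0.07 in the IBH1 overexpressor (q = 1.33e-12) and by 0.18 ± 0.06 in the IBL1 overexpressor (q = 0.0363). PIP1-1 (AT3G61430, chr3:22733309-22735335) was at 251, 168, 268, 235 and 237 FPKM in the same order of genotypes. Only the IBH1 overexpressor stands away from the rest, and the authors' deposited table gives a fall of 0.58 ± 0.09 there (q = 1.47e-09). PIP1-4 (AT4G00430, chr4:185450-187627) was at 231, 186, 203, 217 and 219 FPKM, again lowest in the IBH1 overexpressor. Its fall there was the smallest called in the PIPs of that line, 0.31 ± 0.06 in the authors' deposited table (q = 3.36e-06). After centring, PIP1-4 was also called lower in ibh1, and PIP1-1 and PIP1-4 in the IBL1 overexpressor. These added calls are uncertain, because all genes at a mean of 100 FPKM or more had medians of -0.11 in ibh1 and 0.02 in the IBL1 overexpressor.

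Of the 8 PIP2 genes, which form efficient water channels on their own, 5 fell in the IBH1 overexpressor, 1 rose and 2 were not called. PIP2-7 (AT4G35100, chr4:16708598-16710248) was at 683 FPKM in Col, 347 in the IBH1 overexpressor, 598 in ibh1, 551 in the IBL1 overexpressor and 642 in ibl1. The IBH1 overexpressor had 50.9% of the Col level, far below the other 4 genotypes. In the authors' deposited tables PIP2-7 fell by 0.98 ± 0.08 in the IBH1 overexpressor (q listed as 0) and by 0.31 ± 0.06 in the IBL1 overexpressor (q = 4.76e-05). Neither mutant was called, with ratios of -0.19 ± 0.09 (ibh1) and -0.09 ± 0.07 (ibl1).

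PIP2-1 (AT3G53420, chr3:19803655-19805713), a water channel of roots and leaf veins, was at 504 FPKM in Col, 314 in the IBH1 overexpressor, 488 in ibh1, 419 in the IBL1 overexpressor and 431 in ibl1. Its falls in the authors' deposited tables were 0.68 ± 0.08 in the IBH1 overexpressor (q listed as 0), 0.26 ± 0.07 in the IBL1 overexpressor (q = 0.00116) and 0.22 ± 0.07 in ibl1 (q = 0.0316). PIP2-6 (AT2G39010, chr2:16291477-16294034) was at 253, 152, 215, 199 and 209.8 FPKM in the same order. The same 3 lines were called for both genes. For PIP2-6 the authors' deposited tables give falls of 0.73 ± 0.09 in the IBH1 overexpressor (q listed as 0), 0.34 ± 0.08 in the IBL1 overexpressor (q = 0.000207) and 0.27 ± 0.08 in ibl1 (q = 0.0225). The ibl1 calls of PIP2-1 and PIP2-6 were lost on centring.

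PIP2-2 (AT2G37170, chr2:15613402-15614857) and PIP2-3 (AT2G37180, chr2:15617708-15619155), also known as RD28, are neighbours on chromosome 2 and the most alike pair of the family. Their coding sequences share 94.8% of 858 aligned bases, with 242 bases in the longest identical run, against 88.1% for the next pair, NIP4-1 and NIP4-2. Reads in the identical stretches could be shared between them, so their values are uncertain as separate measurements. The last 120 coding bases are printed 5′ to 3′ to show bases that tell the pair apart. PIP2-2 is on the minus strand and PIP2-3 on the plus strand (RefSeq, TAIR10.1). Capitals mark the 10 bases that differ, so this stretch is less alike than the aligned sequences as a whole.
PIP2-2: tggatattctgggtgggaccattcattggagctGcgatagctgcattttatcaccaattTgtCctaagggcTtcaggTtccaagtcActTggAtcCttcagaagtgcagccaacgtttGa
PIP2-3: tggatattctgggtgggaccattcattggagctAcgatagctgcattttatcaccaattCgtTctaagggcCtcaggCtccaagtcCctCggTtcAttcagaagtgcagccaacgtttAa

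PIP2-2 was at 206 FPKM in Col, 132 in the IBH1 overexpressor, 224 in ibh1, 214 in the IBL1 overexpressor and 189.6 in ibl1, and PIP2-3 was at 73.3, 48.5, 77.0, 73.2 and 67.6 FPKM. Both are lowest in the IBH1 overexpressor, with the other 4 genotypes close together. The authors' deposited table gives falls there of 0.64 ± 0.10 for PIP2-2 (q = 1.79e-09) and 0.60 ± 0.14 for PIP2-3 (q = 0.000627). No other line was called for either gene.

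PIP2-5 (AT3G54820, chr3:20302021-20304010) was the only aquaporin called higher in the IBH1 overexpressor, at 22.9 FPKM against 14.4 in Col, 13.3 in ibh1, 14.3 in the IBL1 overexpressor and 11.9 in ibl1. Its rise of 0.67 ± 0.23 in the authors' deposited table was near the threshold (q = 0.0415). PIP2-8 (AT2G16850, chr2:7301581-7303437), at 33.3 to 44.4 FPKM over the 5 genotypes, was called in no line. PIP2-4 (AT5G60660, chr5:24375457-24376989) was called in none either, with 21.6 FPKM in the IBL1 overexpressor against 14.3 in Col (0.60 ± 0.23, q = 0.0604 in the authors' deposited table).

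Among the TIPs, the largest fall of an abundant member was that of TIP2-1 (AT3G16240, chr3:5505404-5508414, listed in the reference as DELTA-TIP), which carries water and ammonia into the vacuole. TIP2-1 was at 925 FPKM in Col, 329 in the IBH1 overexpressor, 704 in ibh1, 502 in the IBL1 overexpressor and 685 in ibl1. Both overexpressors lie below both mutants, and all 4 lines lie below Col. On the log2 scale the authors' deposited tables give falls of 1.49 ± 0.08 in the IBH1 overexpressor and 0.88 ± 0.07 in the IBL1 overexpressor (q listed as 0 for both). Those in the mutants were 0.39 ± 0.09 for ibh1 (q = 0.000519) and 0.43 ± 0.07 for ibl1 (q = 2.44e-08). In the files TIP2-1 shares its locus with its neighbour PnsB3 (AT3G16250), a chloroplast NDH complex subunit. PnsB3 was at 71.4 FPKM in Col and was called in no line, with 82.9 in the IBH1 overexpressor (0.21 ± 0.14, q = 0.411 in the authors' deposited table).

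TIP1-2 (AT3G26520, chr3:9722443-9723815) was at 1446 FPKM in Col, 972 in the IBH1 overexpressor, 1146 in ibh1, 982 in the IBL1 overexpressor and 988 in ibl1. Unlike TIP2-1, it reached about the same level in 3 lines, and the ibh1 mutant lay between these and Col. The falls in the authors' deposited tables were 0.57 ± 0.07 in the IBH1 overexpressor (q = 9.78e-13), 0.34 ± 0.09 in ibh1 (q = 0.00796), 0.56 ± 0.06 in the IBL1 overexpressor (q listed as 0) and 0.55 ± 0.07 in ibl1 (q = 2.47e-13). TIP1-2 made up 20.7% and TIP2-1 13.2% of the family's FPKM in Col.

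The 300 bases before the gene start of TIP2-1 and TIP1-2 are printed because these are the members called in every comparison. They come from RefSeq (TAIR10.1) and read 5′ to 3′ in the direction of the gene, chr3:5505060-5505359 on the plus strand for TIP2-1 and chr3:9723905-9724204 on the minus strand for TIP1-2. Capitals mark an E-box, CANNTG, the core that helix-loop-helix factors with a basic region can bind.
TIP2-1: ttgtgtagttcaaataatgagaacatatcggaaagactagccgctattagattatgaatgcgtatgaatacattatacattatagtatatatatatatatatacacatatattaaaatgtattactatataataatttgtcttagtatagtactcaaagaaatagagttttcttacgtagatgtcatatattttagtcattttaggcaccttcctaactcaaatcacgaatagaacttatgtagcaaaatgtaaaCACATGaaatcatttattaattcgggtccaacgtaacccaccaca
TIP1-2: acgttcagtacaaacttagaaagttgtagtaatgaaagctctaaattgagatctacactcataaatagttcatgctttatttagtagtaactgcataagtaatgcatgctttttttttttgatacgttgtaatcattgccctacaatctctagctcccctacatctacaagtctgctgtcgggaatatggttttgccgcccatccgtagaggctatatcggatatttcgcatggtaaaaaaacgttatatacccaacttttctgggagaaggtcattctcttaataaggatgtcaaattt
TIP2-1 holds 1 E-box, 45 bases before the gene start, and TIP1-2 holds none. Both strands were searched for the E-box, for the G-box CACGTG, which is itself an E-box, and for CGTGNG, which covers the brassinosteroid response element. In windows of this length, 21 of 35 members (60%) held an E-box, against 61.9% of 27437 genes. The G-box was in 0 of 35 members and in 7.09% of all windows, and CGTGNG in 3 of 35 members (8.57%) and in 14.2% of all. These are letter matches and not binding sites, and the absence of a match says nothing of a factor.

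TIP1-1 and TIP2-2 were called in the IBH1 overexpressor alone. TIP1-1 (AT2G36830, chr2:15445425-15446574), the GAMMA-TIP of the reference, was at 569.9 FPKM in Col, 421 in the IBH1 overexpressor, 546 in ibh1, 614 in the IBL1 overexpressor and 499 in ibl1. TIP2-2 (AT4G17340, chr4:9699253-9700410), found mainly in roots, was at 114, 64.5, 125, 132 and 100.03 FPKM. As deposited, both are lowest in the IBH1 overexpressor and highest in the IBL1 overexpressor. After centring, the IBL1 overexpressor is highest for neither, with TIP1-1 level with Col (-0.01) and TIP2-2 at 0.10 above Col on the log2 scale against 0.12 in ibh1. The authors' deposited table gives falls in the IBH1 overexpressor of 0.44 ± 0.08 for TIP1-1 (q = 5.31e-07) and 0.82 ± 0.13 for TIP2-2 (q = 3.79e-08). In the IBL1 overexpressor neither was called, at 0.11 ± 0.07 for TIP1-1 (q = 0.287) and 0.21 ± 0.10 for TIP2-2 (q = 0.165).

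TIP2-3 and TIP4-1 are low in whole seedlings. TIP2-3 (AT5G47450, chr5:19248249-19249504), a root TIP that also carries ammonia, was at 6.13 FPKM in Col, 1.19 in the IBH1 overexpressor, 9.51 in ibh1, 5.87 in the IBL1 overexpressor and 5.45 in ibl1. It had the largest called ratio of the family, a fall of 2.36 ± 0.73 in the IBH1 overexpressor in the authors' deposited table (q = 0.0193), with an error to match its low level. TIP4-1 (AT2G25810, chr2:11012506-11014170) was at 18.4, 15.7, 24.5, 30.9 and 17.7 FPKM in the same order. It rose in the IBL1 overexpressor by 0.75 ± 0.20 in the authors' deposited table (q = 0.00218), a call that held after centring, and was called in no other line. The other 4 TIPs were below 1 FPKM in every genotype and were not tested. They are TIP3-1 and TIP3-2 of seed storage vacuoles and TIP1-3 and TIP5-1 of pollen, and their highest value was 0.363 FPKM, for TIP3-2 in the IBL1 overexpressor.

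Of the 7 NIPs tested, 1 fell in the IBH1 overexpressor, 1 fell and 1 rose in the IBL1 overexpressor, and 0 were called in ibh1 or, of 6 tested there, in ibl1. NIP6-1 (AT1G80760, chr1:30348801-30352208), which passes boric acid towards young shoot tissue, was at 21.4 FPKM in Col, 7.69 in the IBH1 overexpressor, 15.4 in ibh1, 11.9 in the IBL1 overexpressor and 14.3 in ibl1. As for TIP2-1, all 4 lines lie below Col, with the IBH1 overexpressor lowest and the IBL1 overexpressor next. The authors' deposited tables give falls of 1.47 ± 0.29 in the IBH1 overexpressor (q = 1.83e-05) and 0.84 ± 0.23 in the IBL1 overexpressor (q = 0.00435). The mutants, at -0.47 ± 0.22 for ibh1 (q = 0.275) and -0.58 ± 0.23 for ibl1 (q = 0.129), were not called. NIP6-1 shares its locus in the files with AT1G80750, which was at 72.9 FPKM in Col and called in no line.

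NIP5-1 (AT4G10380, chr4:6431236-6434822), the boric acid channel of root uptake, was at 17.8 FPKM in Col, 16.0 in the IBH1 overexpressor, 19.6 in ibh1, 24.0 in the IBL1 overexpressor and 16.5 in ibl1, and was called in no line. NIP1-1 (AT4G19030, chr4:10421525-10423487), which admits arsenite into roots, was at 22.9, 23.7, 30.0, 37.1 and 26.8 FPKM. It rose in the IBL1 overexpressor by 0.69 ± 0.18 in the authors' deposited table (q = 0.00151), a call that held after centring, and was called in no other line. NIP1-2 (AT4G18910, chr4:10366059-10368381), at 12.4 to 16.9 FPKM, was not called in any line. The remaining 5 NIPs were between 0 and 3.48 FPKM in every genotype, and none was called.

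The SIPs fell in no line. SIP1-1 (AT3G04090, chr3:1072092-1074160) was at 74.7 FPKM in Col, 64.4 in the IBH1 overexpressor, 66.5 in ibh1, 92.8 in the IBL1 overexpressor and 63.9 in ibl1. SIP2-1 (AT3G56950, chr3:21076544-21079831) was at 27.6, 31.3, 32.3, 39.0 and 27.8 FPKM. Both are highest in the IBL1 overexpressor, where the authors' deposited table gives rises of 0.31 ± 0.11 for SIP1-1 (q = 0.0443) and 0.50 ± 0.17 for SIP2-1 (q = 0.0298), both lost on centring. SIP2-1 shares its locus in the files with CRD1 (AT3G56940), an enzyme of chlorophyll synthesis at 1139 FPKM in Col. CRD1 moved the other way in that line, to 908 FPKM (-0.33 ± 0.06, q = 7.26e-06 in the authors' deposited table). SIP1-2 (AT5G18290, chr5:6055028-6056700), at 3.22 to 5.62 FPKM, was called in no line.

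Summed over members, aquaporin FPKM was below Col in all 4 lines. Against 6988 in Col, the sum was 4291 in the IBH1 overexpressor (61.4% of Col), 6224 in ibh1 (89.1%), 5618 in the IBL1 overexpressor (80.4%) and 5836 in ibl1 (83.5%). The PIP sum was 62.2%, 93.5%, 83.9% and 90.4% of Col in the same order, and the TIP sum 58.6%, 83.0%, 73.6% and 74.6%. TIP sums were therefore further below Col than PIP sums in each line, with TIP1-2 and TIP2-1 carrying most of the TIP total. The NIP sum was 87.2%, 107%, 116% and 97.1% of Col, and the SIP sum 96.1%, 97.0%, 130% and 90.3%. These sums have no error estimate. They come mostly from abundant members, and abundant genes in general lay below Col in the mutants. The median log2 ratio of all genes at a mean of 100 FPKM or more was -0.11 in ibh1 and -0.15 in ibl1. It was -0.06 in the IBH1 overexpressor and 0.02 in the IBL1 overexpressor. Whether the sums fell further than genes of that level was not tested.

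**Figure D3:**
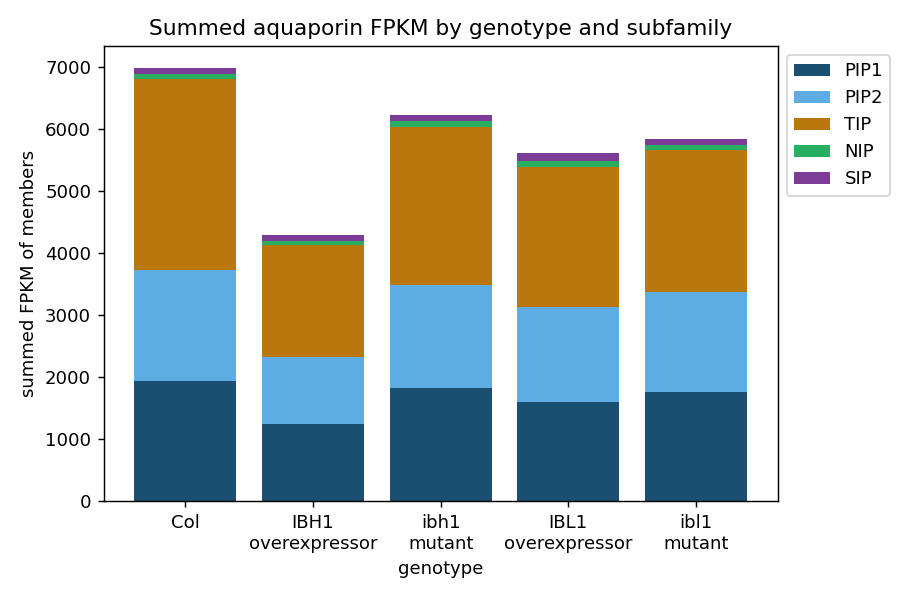
Summed FPKM of the PIP1, PIP2, TIP, NIP and SIP genes in each genotype, as stacked bars that start at 0. The bar falls from 6988 in Col to 4291 in the IBH1 overexpressor, with the PIP1, PIP2 and TIP segments all shorter, and NIPs and SIPs are thin slices throughout.

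All 13 members at a mean of 100 FPKM or more fell in the IBH1 overexpressor, where 17.2% of the 1591 genes of that level fell. In the other lines 3 of the 13 were lower in ibh1 (genes of that level 13.7%), 8 in the IBL1 overexpressor (19.4%) and 5 in ibl1 (27.4%). None of the 13 was called higher in any line, while of all genes at that level 7.73%, 2.70%, 17.9% and 2.96% were higher in the same order of lines. Their median log2 ratios were -0.68, -0.19, -0.26 and -0.19 in the order IBH1 overexpressor, ibh1 mutant, IBL1 overexpressor and ibl1 mutant, and those of all genes at that level were -0.06, -0.11, 0.02 and -0.15. The level of 100 FPKM was chosen after the values were seen.

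Precision differed with level. In the IBH1 overexpressor the median standard error of the log2 ratio was 0.08 for the 13 members at 100 FPKM or more, 0.21 for the 11 members of 10 to 100 FPKM and 0.80 for the 4 members of 1 to 10 FPKM. A member at 10 to 100 FPKM therefore needed a larger ratio to be called, and changes the size of those in PIP1-4 would not have been called among the NIPs.

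**Figure D4:**
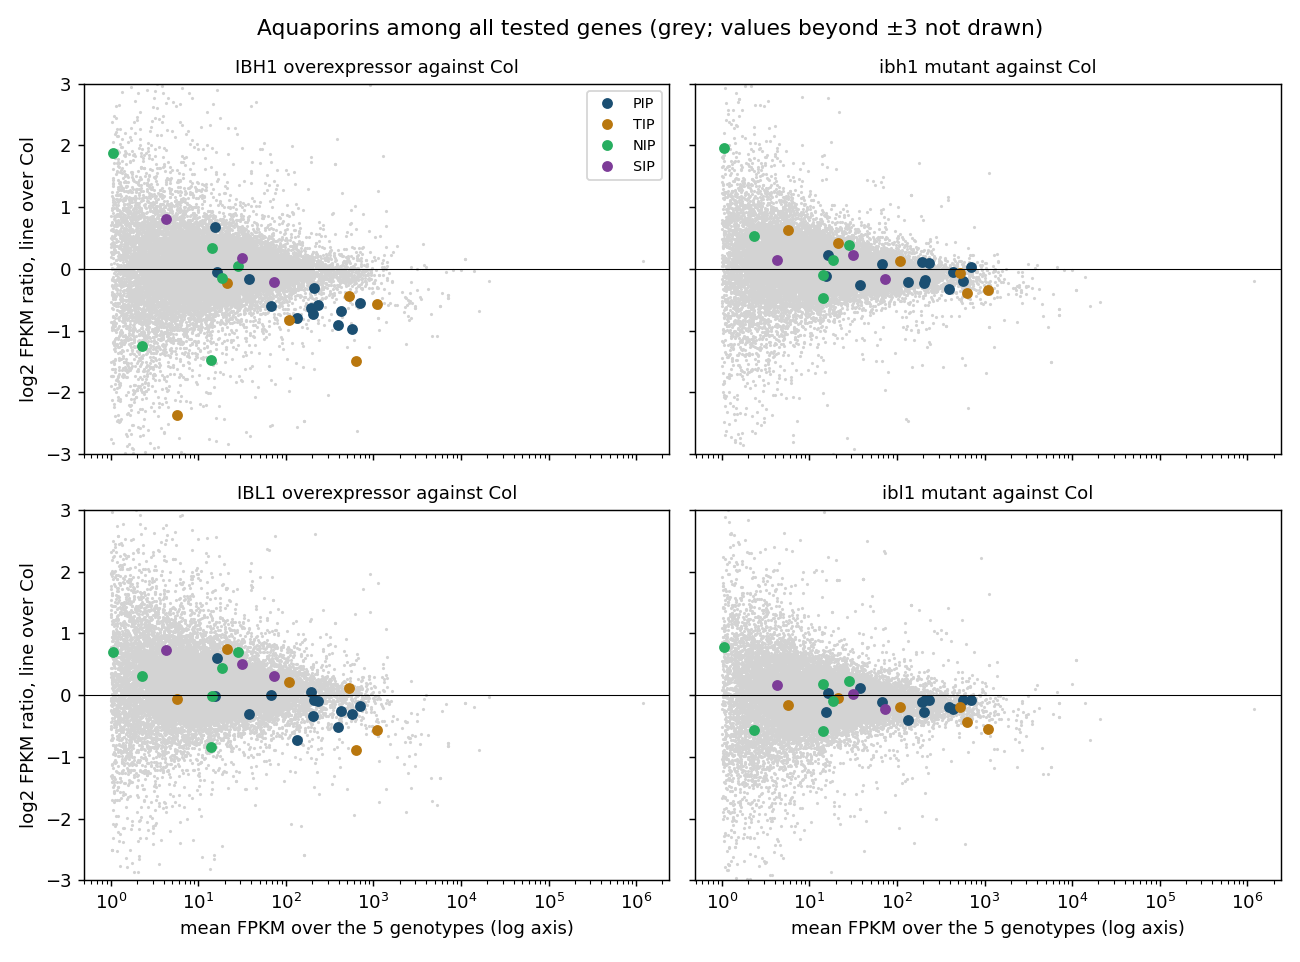
log2 ratio of each line over Col against the mean FPKM over the 5 genotypes (log axis), with all tested genes in grey and aquaporins coloured by subfamily. In the IBH1 overexpressor the PIPs and TIPs at 100 FPKM or more lie below 0, at -0.31 to -1.49. They lie at -0.39 to 0.14 in ibh1 and at -0.55 to -0.07 in ibl1.

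The overexpressors were next set directly against each other by the difference of their log2 ratios, in which Col cancels. IBH1 overexpressor seedlings were lower for 13 of 29 members and higher for 0, against 4.08% of all tested genes lower and 1.39% higher. Shares for differences between lines cover genes of every level and were not taken among genes as abundant as many members. Abundant genes have smaller errors and are called more easily. The 13 members were 8 PIPs, 4 TIPs and SIP1-1. TIP2-2 differed most among them, at -1.03 ± 0.17, followed by TIP4-1 at -0.97 ± 0.31. PIP2-2 differed by -0.70 ± 0.13, PIP2-7 by -0.67 ± 0.10 and TIP2-1 by -0.61 ± 0.10. The median difference of the 28 members at 1 FPKM or more was -0.51, and that of all genes at that level -0.12. These calls come from a normal test on the errors implied by the authors' statistics, adjusted over all genes. An exact test would need values per library, so differences are given with their errors or intervals and without p-values.

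For 3 members called lower in both overexpressors the interval of the difference included 0. TIP1-2 differed by -0.01, with a 95% interval of -0.21 to 0.18, and PIP1-5 by -0.07, with an interval of -0.35 to 0.20. NIP6-1 differed by -0.63, with a wide interval of -1.36 to 0.10. With both tables centred, 7 of the 13 differences were still called, those of PIP1-1, PIP2-1, PIP2-2, PIP2-7, TIP1-1, TIP2-1 and TIP2-2. The standard error used counts the part of Col in both ratios, and whether it covers the spread between separately grown samples is not known. With standard errors 1.5 times as large, 5 of the differences were called.

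**Figure D5:**
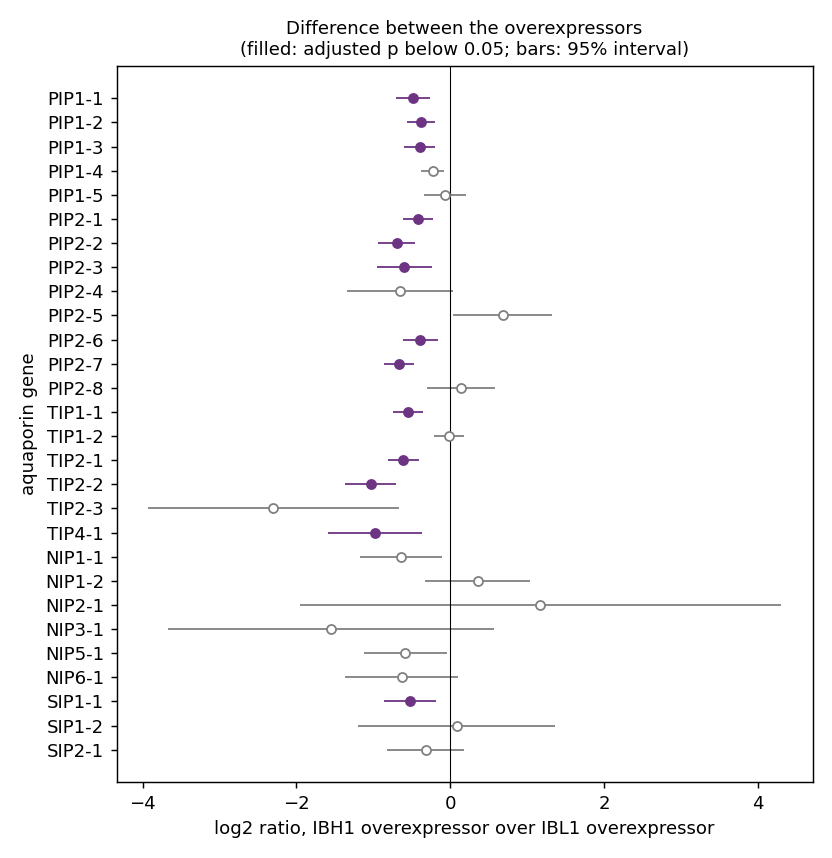
Difference in log2 ratio between the IBH1 and the IBL1 overexpressor for the 28 aquaporins at a mean of 1 FPKM or more, with 95% intervals and filled points where the adjusted p is below 0.05. The 13 filled points all lie left of 0, from -0.38 to -1.03, and TIP1-2 and PIP1-5 sit near 0 with intervals that include it.

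Between the mutants 0 of 27 members were called by the normal test with Benjamini-Hochberg adjustment, against 0.466% of all tested genes in either direction. At an unadjusted threshold of 0.05 the count was 1, TIP2-2, with a difference of 0.32 ± 0.16 towards higher levels in ibh1. For TIP1-2 and TIP2-1, which were called in both mutants, the sizes of the falls are those given above.

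The IBH1 overexpressor against the ibh1 mutant gave 13 of 29 members lower and 0 higher, against 1.62% of all genes lower and 1.30% higher. These shares too are not matched for level. TIP2-1 differed by -1.10 ± 0.11 and PIP2-7 by -0.78 ± 0.11, and TIP2-3 had a 95% interval of -4.58 to -1.41. The other 10 were PIP1-1, PIP1-2, PIP1-3, PIP1-5, PIP2-1, PIP2-2, PIP2-3, PIP2-6, TIP1-1 and TIP2-2, at -0.37 to -0.96. TIP1-2, at -0.24 ± 0.11, was not called. No aquaporin moved in opposite directions past the threshold in this line and in its mutant.

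The IBL1 overexpressor against the ibl1 mutant gave 2 of 27 members lower and 2 higher, against 0.722% of all genes lower and 4.44% higher. Lower were TIP2-1, by -0.45 ± 0.09, and PIP1-3, by -0.31 ± 0.10. Higher were SIP1-1, by 0.54 ± 0.17, and TIP1-1, by 0.30 ± 0.10. Both of these higher calls were lost on centring, which gave 4 members lower and 0 higher by adding PIP1-5 (-0.50) and PIP2-7 (-0.40) to the lower calls.

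Proton pumps set up the gradients that drive solute, and with it water, across the membranes in which PIPs and TIPs sit. Of 11 plasma membrane proton pump genes, 10 were tested in the IBL1 overexpressor and 9 in each other line. In the IBH1 overexpressor 1 was lower and 0 higher (all tested genes 4.19% and 3.82%). The counts were 0 and 2 in ibh1 (2.04% and 1.34%) and 1 and 3 in the IBL1 overexpressor (3.58% and 10.3%). In ibl1 they were 0 and 0 (4.40% and 1.05%). AHA2, a main pump of roots, was at 256 FPKM in Col, 187 in the IBH1 overexpressor, 347 in ibh1 and 354 in the IBL1 overexpressor. Unlike TIP2-1 and PIP1-3, AHA2 is above Col in the IBL1 overexpressor. The authors' deposited tables give AHA2 a fall of 0.45 ± 0.07 in the IBH1 overexpressor (q = 3.81e-08) and rises of 0.44 ± 0.09 in ibh1 (q = 7.18e-05) and 0.47 ± 0.06 in the IBL1 overexpressor (q = 5.5e-12). AHA7 rose by 1.21 ± 0.24 in ibh1 (q = 8.06e-05) and by 1.13 ± 0.24 in the IBL1 overexpressor (q = 5.06e-05), AHA1 rose by 0.18 ± 0.06 in the latter (q = 0.0364) and AHA3 fell by 0.44 ± 0.10 (q = 0.000256), all in the authors' deposited tables.

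Of 28 genes for proton pumps of the vacuolar type, 26 were tested in ibl1 and 27 in each other line. The list goes by type of pump and not by membrane, so some of its pumps may not sit beside the TIPs. In the IBH1 overexpressor 0 were called and in ibh1 0, while TIPs fell in both. In the IBL1 overexpressor 8 rose and 0 fell (all tested genes 10.3% and 3.58%), while TIP1-2 and TIP2-1 fell. The largest ratios in the authors' deposited table were those of VHA-E3 (0.64 ± 0.22, q = 0.0315), VHA-a1 (0.44 ± 0.15, q = 0.0295), VHA-c5 (0.41 ± 0.11, q = 0.00464) and VHA-B2 (0.36 ± 0.04, q listed as 0). The median ratio of these genes, 0.19, lay near the 0.12 of all genes in that table. In the ibl1 mutant 2 fell (all tested genes 4.40%). They were VHA-c2, by 0.33 ± 0.09 (q = 0.00765), and VHA-c3, by 0.26 ± 0.09 (q = 0.0452), in the authors' deposited table.

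Boron exporters work beside the boric acid channels NIP5-1 and NIP6-1. Of 7 genes, 6 were tested in the IBL1 overexpressor and 5 in each other line. In the IBH1 overexpressor 1 was lower (all tested genes 4.19%), and in ibh1 2 were higher (1.34%). In the IBL1 overexpressor 1 was higher (10.3%), and 0 were called in ibl1. BOR2 was at 23.6 FPKM in Col, 15.3 in the IBH1 overexpressor, 37.4 in ibh1 and 39.2 in the IBL1 overexpressor. By the authors' deposited tables BOR2 fell by 0.62 ± 0.15 in the IBH1 overexpressor (q = 0.000826) and rose by 0.66 ± 0.13 in ibh1 (q = 3.5e-05) and by 0.73 ± 0.11 in the IBL1 overexpressor (q = 6.18e-09). NIP6-1 and BOR2 thus share their direction in the IBH1 overexpressor and not in the IBL1 overexpressor. BOR1, which loads boron into the xylem, rose by 0.48 ± 0.15 in ibh1 in the authors' deposited table (q = 0.0333).

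Many aquaporins differ in level between roots and shoots, so markers of these tissues are given beside the family. The 8 endodermis and stele markers summed to 148 FPKM in Col, 119 in the IBH1 overexpressor, 192 in ibh1, 201 in the IBL1 overexpressor and 138 in ibl1. Of them SHR was lower in the IBH1 overexpressor (-0.81 ± 0.22, q = 0.00666 in the authors' deposited table), and CASP1 and PHO1 were higher in ibh1 and in the IBL1 overexpressor. The 6 root hair markers summed to 63.1, 78.2, 86.0, 70.4 and 61.0 FPKM in the same order of genotypes, with RHS19 higher in the IBH1 overexpressor and the ibh1 mutant. The 7 green tissue markers summed to 35084, 34995, 34239, 31650 and 34839 FPKM. GAPA was higher in the IBH1 overexpressor, and RCA was higher in ibh1 and lower in the IBL1 overexpressor. The endodermis and stele sum was thus below Col, as the aquaporin sum was, in the IBH1 overexpressor and ibl1, and above Col, unlike it, in ibh1 and the IBL1 overexpressor. The root hair sum was below Col in ibl1 only and above it in the other lines, the IBH1 overexpressor included. The green tissue sum was below Col in every line. The 2 lists of root markers thus went opposite ways in the IBH1 overexpressor. The part of tissue makeup in the aquaporin values was not tested.

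Seed and pollen markers were near absent, like the aquaporins of these organs. Of the 7 seed markers 6 were at 0 in Col, and their sum was at most 1.31 FPKM in any genotype. Of the 3 pollen markers 2 were at 0 in Col and in every line, and their sum was at most 1.65 FPKM.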

How the data were processed

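Per the labels' protocols, poly(A) RNA of entire seedlings went into Illumina mRNA-Seq libraries. Per the submitters' processing notes, CASAVA 1.8.2, TopHat 1.4.1 and Cuffdiff were used with the TAIR10 build. Not given in the sources used here are the version of Cuffdiff, how it scaled the groups and whether it used strand. There are 4 deposited tables, each setting a line against Col. Per the file headers, each holds an FPKM value per genotype, a log2 ratio, a test statistic, a p-value and a q-value. The deposited log2 ratio is Col over line, and its sign was turned. Col values of the members were the same in all 4 tables. A label protocol speaks of more biological replicates than the 2 libraries per genotype that the labels number, and the latter were taken as the design.

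The implied standard error is the log2 ratio divided by the statistic, taken without sign. The deposited statistic had the sign opposite to the log2 ratio, for 20216 to 20926 genes per table. Directions were therefore taken from the FPKM values and the log2 ratio. This was checked: the deposited p-value equals the normal p of the statistic to within 2.81e-06, and the deposited q-value a Benjamini-Hochberg adjustment over the tested genes to within 2.39e-06. Calls are q below 0.05 over the whole table. A difference between lines was tested with a two-sided normal test on the difference of log2 ratios, with Benjamini-Hochberg adjustment over all genes tested in both tables. The scripts (Python 3.11.15, pandas 2.3.3, scipy 1.17.1, Biopython 1.88) were tested on simulated data. All 35 members are in the reference annotation (TAIR10.1), 34 of them under their family name. Loci are those of the files, counted from 1, and 6 members share a locus with a neighbour.

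Every called member is named, as are, of the members not called, the 5 of highest mean FPKM, and called genes of the related lists, at most 6 per list and comparison. Members, lists and tests were chosen with earlier results of these data known. Alternatives were a threshold of 0.01, centring each table on its median log2 ratio, a minimum mean of 1 FPKM for adjustment, standard errors 1.5 times as large, and, for medians, pseudocounts of 0.1 and 1 and other level filters.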

Additional observations from a re-analysis of the deposited data

Results flagged for a closer look

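For 13 members the response of the IBH1 overexpressor differed from that of the IBL1 overexpressor by the test of the difference itself (normal test, Benjamini-Hochberg adjusted over all genes). The differences in log2 ratio, IBH1 minus IBL1 overexpressor, were -0.49 for PIP1-1, -0.38 for PIP1-2, -0.40 for PIP1-3, -0.42 for PIP2-1, -0.70 for PIP2-2, -0.59 for PIP2-3, -0.39 for PIP2-6 and -0.67 for PIP2-7. They were -0.55 for TIP1-1, -0.61 for TIP2-1, -1.03 for TIP2-2, -0.97 for TIP4-1 and -0.53 for SIP1-1. All 13 had the IBH1 overexpressor lower. TIP2-2 and TIP4-1 were above Col in the IBL1 overexpressor, also after centring, and below it in the IBH1 overexpressor, although TIP2-2 was called in the latter only and TIP4-1 in the former only. Of the 13 differences, 7 were still called after centring, with that of TIP2-2 among them and that of TIP4-1 not. How far the lower IBL1 level in the IBH1 overexpressor bears on these differences was not tested.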

How the results depend on the processing

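The 17 members called in the IBH1 overexpressor were 15 at a threshold of 0.01, 17 after centring, 17 with the level filter and 14 with standard errors 1.5 times as large. With the larger errors the calls went to 0 in ibh1, 5 in the IBL1 overexpressor and 2 in ibl1, to 5 between the overexpressors, 6 between the IBH1 overexpressor and the ibh1 mutant, and 0 between the IBL1 overexpressor and the ibl1 mutant. A threshold of 0.01 left 3 in ibl1 and 1 between the IBL1 overexpressor and the ibl1 mutant. Centring left 3 in ibl1 and 7 between the overexpressors. No result reversed. Centring brought calls to 3 single values against Col, and to PIP1-5 (-0.50) and PIP2-7 (-0.40) between the IBL1 overexpressor and ibl1. The cause of these changes was not tested, beyond the larger errors themselves. The depth is unknown, and standard errors were largest for members below 10 FPKM. No paired analysis was possible because the tables give 1 value per genotype, and for the same reason no library could be left out.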
